A study of Mus musculus with 5 samples.

Results

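The troponin subunit family is the set of 8 genes that encode fast, slow and cardiac forms of troponin T, troponin I and troponin C. Its members were taken by gene symbol from the deposited expression table, and all 8 (Tnnt1, Tnnt2, Tnnt3, Tnni1, Tnni2, Tnni3, Tnnc1 and Tnnc2) were found among its 54699 genes. The table holds 5 RNA sequencing libraries, 1 per group, from B16F10, a pigmented mouse melanoma line infected with lentivirus. Cells with forced Myod1 expression, cells with forced Pparg expression and cells with the empty expression vector were collected on day 8. Cells with a short hairpin RNA against Setdb1 and cells with the empty knockdown vector (shCtrl) were collected on day 7. Both control groups are labelled wild type and carry virus as well. Myod1 is a transcription factor of skeletal muscle, Pparg a nuclear receptor of fat cells and Setdb1 a histone H3 lysine 9 methyltransferase. Promoter of the transgene and clonality of the cultures are not given in the sources used here. Each group is a lone library, so differences between groups carry no replicate error and were not tested.

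Troponin is the calcium switch of striated muscle. Troponin C binds calcium, troponin I holds back the interaction of actin with myosin, and troponin T fastens the complex to tropomyosin on the thin filament. Separate genes encode fast skeletal, slow skeletal and cardiac forms of T and I, whereas slow skeletal and cardiac muscle share the same troponin C gene, Tnnc1. Forms named cardiac or slow are also made by developing skeletal muscle, as is known for Tnnt2 and Tnni1.

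The libraries held 16214802 to 18300670 reads assigned to genes, recovered from the deposited FPKM, a level in fragments per kilobase of gene and per unit of sequencing. That unit was not the count of assigned reads. Myod1 had an FPKM of 260 in the Myod1 expression library and 0 reads in the other 4, Pparg had 44.4 in its own library and 0 reads elsewhere, and Setdb1 had 0.867 with knockdown against 9.82 in its control. All 8 melanocyte markers examined (Tyr, Tyrp1, Dct, Pmel, Mlana, Sox10, Mitf and Slc45a2) had an FPKM of at least 1 in every library, with a summed FPKM of 3306 with Myod1 expression and 2308 with Pparg expression against 7816 in their shared control, and of 9098 with Setdb1 knockdown against 8542. The last sum was carried by Pmel, at 4347 against 2993, while 2 of the 8 were at least 2-fold lower with knockdown (Mitf, 13.7 against 41.6, and Slc45a2, 113 against 321) and 0 higher, where 10.3% of all genes were lower and 9.34% higher. With Myod1 expression 5 of the 8 were lower and 0 higher (7.55% and 14% of all genes), and with Pparg expression 6 were lower and 0 higher (2.30% and 4.22%). All 8 skeletal muscle markers reached an FPKM of 1 with Myod1 expression, summing to 17970. In the other 4 libraries Des, an intermediate filament gene, alone did so, and the sums lay between 4.75 and 14.5. Des stood at 13.6 with Setdb1 knockdown against 4.75 in its control and 6.20 in the other, past 2-fold in both cases. With Pparg expression it stood at 12.9, a log2 ratio of 0.949 to its own control and 1.27 to the other. Of 7 cardiac muscle markers 3 reached an FPKM of 1 with Myod1 expression (Myh6, Nppb and Gata4), and Nkx2-5, Tbx5 and Myl7 had 0 reads there. In each other library 1 did so, Nppb. It was lower with Myod1 expression, at 11.6 against 26.3 in its control and 18.1 in the other. The cardiac sum was 18.6 with Myod1 expression, against 10.5 to 26.3 in the other 4 libraries. Of 6 smooth muscle markers 3 reached an FPKM of 1 with Myod1 expression (Smtn, Acta2 and Lmod1), against 1 in each other library. The sums were 415 against 9.41 to 11.3, and most of the 415 was Acta2, at 267. Myh11, Cnn1 and Tagln stayed under an FPKM of 1 with Myod1 expression, at 0.301, 0.0465 and 0.224. Of 5 adipocyte markers 2 reached an FPKM of 1 with Pparg expression (Fabp4 at 153 and Plin1 at 1.25) and 0 in the other 4 libraries. Of 4 macrophage markers Cd68 alone reached it, in all 5. The part of these markers in the troponin levels was not tested. In bulk RNA a smaller share of expressing cells and less RNA per cell cannot be told apart.

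In the Myod1 expression library troponin genes took 196740 reads, or 1.08% of the library (95% Wilson interval 1.07% to 1.08%). They took 84 reads with Pparg expression, 26 in the empty expression vector control, 63 with Setdb1 knockdown and 35 in the empty knockdown vector control. Wilson intervals here and below cover counting error alone, since reads without molecular identifiers are not independent molecules. Compared by log2((FPKM + 1)/(FPKM + 1)), 7 of the 8 members were at least 2-fold higher with Myod1 expression than in the empty expression vector control, and none was lower. Genes were compared where the FPKM reached 1 in any library, and of these 12842 genes 14% were at least 2-fold higher and 7.55% lower in the same comparison. At a 4-fold limit 6 members were higher, against 4.35% of all genes higher and 0.382% lower. Set against the empty knockdown vector control, 7 members were again at least 2-fold higher (15.1% of all genes higher, 7.51% lower), and 7 were so against Pparg expression (11.8% higher, 5.99% lower). In the comparison with the empty expression vector control the median log2 ratio was 8.80 over the 7 members compared and 0.02 over all genes compared. Those 7 reached an FPKM of 1 in the Myod1 expression library alone, so their count describes the family and is no independent support. The 8th member, cardiac Tnni3, stayed under that level in all 5 libraries.

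**Figure D1:**
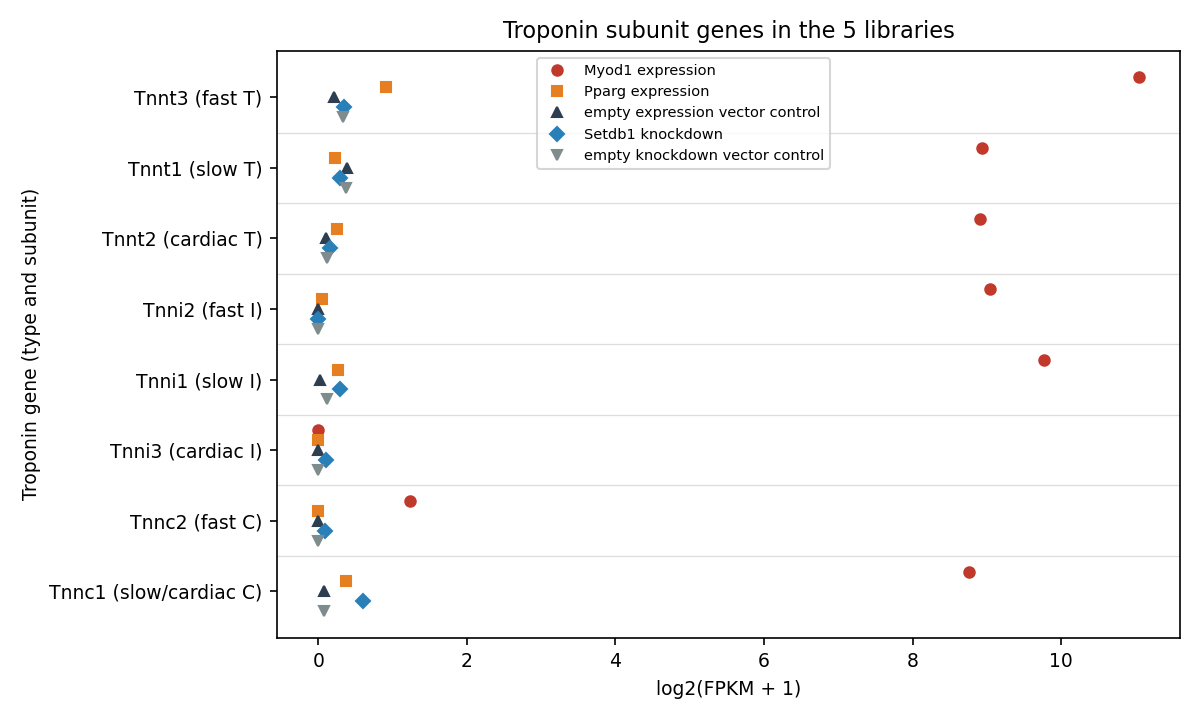
Level of each troponin gene in the 5 libraries, on a log2(FPKM + 1) axis, with 1 point per library and no error bars. In the Myod1 expression library 6 genes sit at an FPKM between 433 and 2112, while fast Tnnc2 stands at 1.35 and cardiac Tnni3 at 0.

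Troponin T, the subunit that binds tropomyosin, was present in all 3 forms with Myod1 expression. Fast Tnnt3 (ENSMUSG00000061723, GRCm38 chromosome 7, 142498836 to 142516009) had an FPKM of 2112 (interval 2094 to 2130) with Myod1 expression, 0.890 with Pparg expression, 0.155 in the empty expression vector control, 0.273 with Setdb1 knockdown and 0.264 in the empty knockdown vector control. It was the highest troponin gene per gene length, and its level in the other libraries rested on 4 to 27 reads. Its ratio to the empty expression vector control, which had 4 reads, was 13653 (exact counting interval 5332 to 50110). Slow Tnnt1 (ENSMUSG00000064179, chromosome 7, 4504570 to 4516382, minus strand) had an FPKM of 490 (483 to 497) with Myod1 expression, 0.166 with Pparg expression, 0.306 in the empty expression vector control, 0.221 with Setdb1 knockdown and 0.298 in the empty knockdown vector control. Tnnt1 thus had its lowest value with Pparg expression, and among the other 4 libraries the intervals of all overlapped. The ratio to the control was 1604 (896 to 3214). Cardiac Tnnt2 (ENSMUSG00000026414, chromosome 1, 135836354 to 135852260) had an FPKM of 478 (474 to 482) with Myod1 expression, 0.195 with Pparg expression, 0.0711 in the empty expression vector control, 0.119 with Setdb1 knockdown and 0.0849 in the empty knockdown vector control. Its ratio to the control was 6721 (3540 to 14700).

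The order of the 3 troponin T genes depended on the length by which reads were divided. The deposited gene lengths equal the summed exon bases of all transcripts in GENCODE release M21, and these are 1583 bases for Tnnt3, 2204 for Tnnt1 and 7752 for Tnnt2. The longest principal transcript of each gene is 1007, 1027 and 1200 bases long. By deposited FPKM, Tnnt3 made up 68.6% of troponin T (counting interval 68.3% to 68.8%), Tnnt1 15.9% and Tnnt2 15.5%. By reads per base of the principal transcript, Tnnt3 made up 44.5% (44.2% to 44.8%), Tnnt2 41.4% (41.1% to 41.6%) and Tnnt1 14.1%. In reads not divided by length Tnnt2 stood first with 58225, ahead of Tnnt3 with 52565 and Tnnt1 with 16982. Tnnt3 thus stood above Tnnt1 on each of the 3 scales. Between Tnnt2 and the other 2 forms the order changed, with Tnnt1 and Tnnt2 close together by FPKM and Tnnt2 at 48.5 against 16.5 reads per base by transcript length.

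Troponin I, the inhibitory subunit, was present in its slow and fast skeletal forms and was not detected in its cardiac form. Slow Tnni1 (ENSMUSG00000026418, chromosome 1, 135779434 to 135810989) had an FPKM of 874 (866 to 882) with Myod1 expression, 0.203 with Pparg expression, 0.0170 in the empty expression vector control, 0.225 with Setdb1 knockdown and 0.0831 in the empty knockdown vector control. The empty expression vector control held 1 read of Tnni1, and the ratio to it was 51404 with an exact counting interval from 9226 to 2030400. Against the empty knockdown vector control, with 5 reads, it was 10523 (4509 to 32411). Fast Tnni2 (ENSMUSG00000031097, chromosome 7, 142441808 to 142444410) had an FPKM of 526 (517 to 536) with Myod1 expression, 0.0348 from 1 read with Pparg expression and 0 reads in the other 3 libraries. Set against 3 reads in the empty expression vector control, it was 4290-fold higher, a figure given without counting error. Tnni1 made up 62.4% of troponin I by FPKM (62.0% to 62.9%) and 72.7% by reads per base of the principal transcript (72.3% to 73.1%), so slow exceeded fast on both scales, whereas Tnnt3 exceeded Tnnt1.

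Cardiac Tnni3 (ENSMUSG00000035458, chromosome 7, 4518305 to 4524229, minus strand) carries the regulated inhibitory subunit of the adult heart. It had 0 reads in 4 libraries, Myod1 expression among them, and 3 reads with Setdb1 knockdown, an FPKM of 0.0786. In the Myod1 expression library 3 reads, the limit taken here for a count of 0, would be an FPKM of 0.0925, and the Wilson interval reaches 0.118, where its neighbour Tnnt1, 1922 bases away on the same strand, stood at 490. The stretches around the start sites of these adjacent genes are given because the pair joins an abundant member and an undetected one. They run from 250 bases before to 50 bases after the start on the minus strand of GRCm38.p6, at chr7:4515926-4516225 for Tnnt1 and chr7:4522479-4522778 for Tnni3, after RefSeq, with E-boxes (CANNTG, the core bound by Myod1 and related factors) in capitals.
Tnnt1: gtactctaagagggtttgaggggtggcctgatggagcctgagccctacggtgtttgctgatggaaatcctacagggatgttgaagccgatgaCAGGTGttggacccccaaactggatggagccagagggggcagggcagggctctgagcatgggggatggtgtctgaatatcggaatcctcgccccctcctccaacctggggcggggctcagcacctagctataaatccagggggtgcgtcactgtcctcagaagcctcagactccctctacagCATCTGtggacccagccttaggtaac
Tnni3: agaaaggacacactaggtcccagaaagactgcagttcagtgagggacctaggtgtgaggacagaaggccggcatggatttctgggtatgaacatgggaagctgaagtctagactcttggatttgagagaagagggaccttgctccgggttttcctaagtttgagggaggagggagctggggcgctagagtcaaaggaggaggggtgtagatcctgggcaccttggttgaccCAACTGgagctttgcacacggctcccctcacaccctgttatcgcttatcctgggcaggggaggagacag
Tnnt1 had 2 E-boxes in this window, CAGGTG at position -158 and CATCTG at position 24 counted from the start site, and Tnni3 had 1, CAACTG at position -19.

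Troponin C, the calcium sensor, was almost wholly Tnnc1 in the table. Slow and cardiac Tnnc1 (ENSMUSG00000091898, chromosome 14, 31208312 to 31211729) had an FPKM of 433 (423 to 443) with Myod1 expression, 0.301 with Pparg expression, 0.0588 in the empty expression vector control, 0.519 with Setdb1 knockdown and 0.0574 in the empty knockdown vector control. Each control held 1 read of Tnnc1, and the ratio to the empty expression vector control was 7362 with an exact counting interval from 1321 to 290819. Fast Tnnc2 (ENSMUSG00000017300, chromosome 2, 164777161 to 164779967, minus strand) had an FPKM of 1.35 (0.844 to 2.16) from 17 reads with Myod1 expression, 0.0675 from 1 read with Setdb1 knockdown and 0 reads in the other 3 libraries. With 3 reads taken for the control, the difference was 5.89-fold, a figure that leaves out the counting error of the 17 reads. The fast form thus made up 0.311% of troponin C by FPKM (0.194% to 0.500%), where it made up 68.6% of troponin T and 37.6% of troponin I. That interval does not cover the overlap of Tnnc2 with another gene, described next.

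Of the 8 members, Tnnc2 shares the most exon bases with another gene. Of its 800 exon bases in GENCODE M21, 592 (74.0%) are also exon bases of Ube2c, a ubiquitin-conjugating enzyme of mitosis that is encoded on the opposite strand. Of the 6 exons of its principal transcript only 1 has no base in common with Ube2c, and 108 of that transcript's 700 bases are free of overlap. The submitters' processing notes name featureCounts, but the handling of strand and of reads that fall on 2 genes is not given in the sources used here. Reads of Tnnc2 and Ube2c over the shared bases therefore cannot be told apart. Ube2c had an FPKM of 21.3 with Myod1 expression, 32.6 with Pparg expression, 40.6 in the empty expression vector control, 10.1 with Setdb1 knockdown and 47.5 in the empty knockdown vector control. It was lower with Myod1 expression than in the control, by -0.90 on the log2 scale. Whether reads over the shared bases were left out was not tested. Were all 17 reads from bases free of overlap, Tnnc2 would make up 1.19% of troponin C by gene length (208 free bases) or 1.58% by the principal transcript (108 free bases), which are no bounds. Tnnc1 lies within the span of Nisch on the opposite strand and shares 0 exon bases with it, and Tnni3 shares 86 of 2063 (4.17%) with Dnaaf3.

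The windows around the start sites of the troponin C genes are given because the calcium sensor showed the widest gap between a fast and a slow form. That ranking is by the deposited values and is subject to the overlap of Tnnc2 with Ube2c. They are chr14:31208062-31208361 on the plus strand for Tnnc1 and chr2:164779685-164779984 on the minus strand for Tnnc2, of the same build, source and length, again with E-boxes in capitals.
Tnnc1: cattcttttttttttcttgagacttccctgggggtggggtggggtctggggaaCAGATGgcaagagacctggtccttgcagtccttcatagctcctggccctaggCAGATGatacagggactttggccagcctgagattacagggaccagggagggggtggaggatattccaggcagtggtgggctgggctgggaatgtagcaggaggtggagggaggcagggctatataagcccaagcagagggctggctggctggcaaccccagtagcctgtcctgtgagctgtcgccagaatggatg
Tnnc2: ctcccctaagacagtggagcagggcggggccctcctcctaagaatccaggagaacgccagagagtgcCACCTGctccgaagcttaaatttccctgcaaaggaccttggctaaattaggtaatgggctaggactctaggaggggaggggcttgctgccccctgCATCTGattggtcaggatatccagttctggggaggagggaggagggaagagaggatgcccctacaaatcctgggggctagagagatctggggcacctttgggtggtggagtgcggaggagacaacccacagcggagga
Both windows held 2 E-boxes. They read CAGATG at positions -197 and -145 in Tnnc1, and CACCTG at -183 and CATCTG at -88 in Tnnc2. RefSeq gave 8 such windows for 6 of the 8 genes (Tnni1, Tnnt2, Tnnc2, Tnnt1, Tnni3 and Tnnc1). All 8 held CANNTG, as did 72.3% of the 32851 windows in the table. CAGCTG, which is a case of CANNTG, was found in Tnni1 and Tnnt2, in 3 of the 8 windows, although the 2 Tnni1 windows overlap and hold the same CAGCTG, against 16.3% of all windows. CACCTG, read on both strands and also a case of CANNTG, was found in 5 of the 8 windows, against 20.2% of all windows. These windows belong to 4 genes, since both Tnnt2 windows held it. The CATTCC core of the TEAD site, read on both strands, was found in Tnnt2 and Tnnc1, against 14.7% of all windows. The MEF2 consensus and the CArG box of serum response factor were found in 0 of the 8 windows, against 3.19% and 1.63%. The last of the 7 motifs searched, the TATA box core TATAAA read on both strands, was found in 1 window, that of Tnnt1, against 13.6%. These are matches of letters in windows of 300 bases and say nothing of binding.

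**Figure D2:**
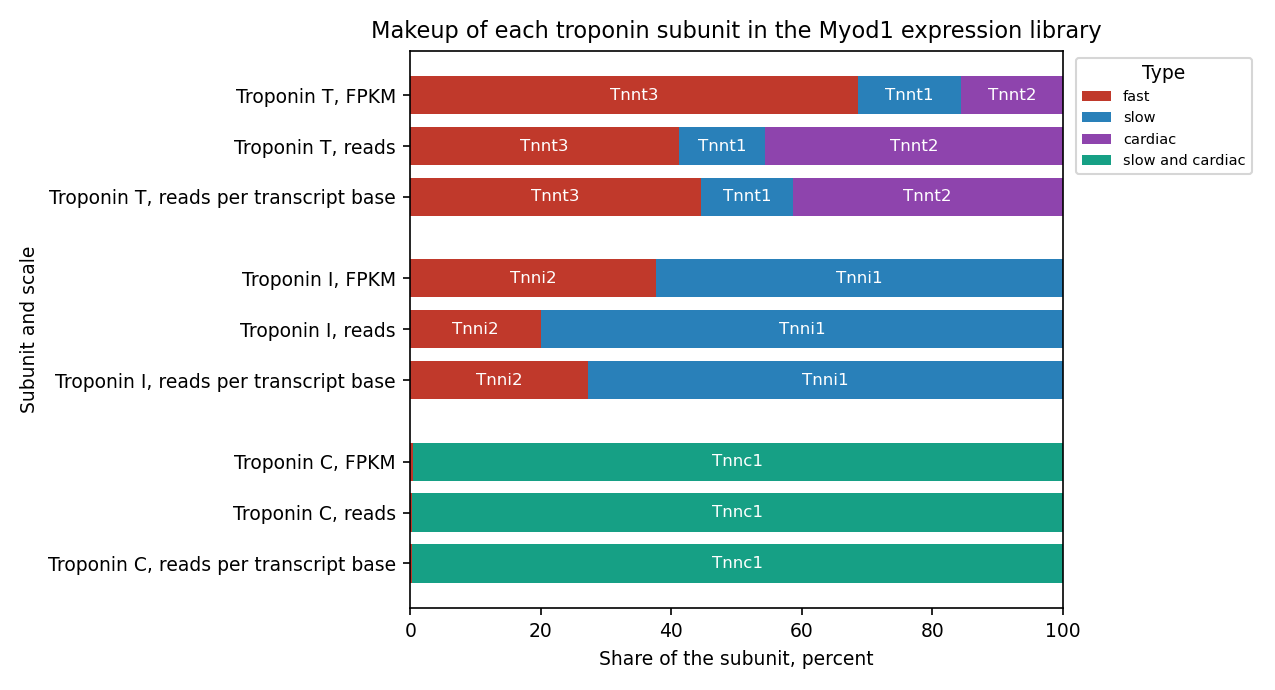
Share of each gene in its troponin subunit in the Myod1 expression library, in percent, by deposited FPKM, by recovered reads and by reads per base of the principal transcript. Fast Tnnt3 falls from 68.6% to 44.5% of troponin T between FPKM and transcript length, while Tnnc1 holds over 99% of troponin C on the 3 scales plotted, none of which allows for the overlap of Tnnc2 with Ube2c.

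The RNA of the 3 subunits did not stand at equal levels in the table. The complex holds the proteins in equal number, but these values are of RNA and protein was not measured here. Summed FPKM with Myod1 expression was 3080 for troponin T, 1400 for troponin I and 434 for troponin C. Troponin T was 7.09 times troponin C by FPKM and 11.9 times by reads per base of the principal transcript, and troponin I was 3.22 and 6.004 times troponin C. The troponin C sum is subject to the overlap of Tnnc2 with Ube2c.

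Pparg expression and Setdb1 knockdown left the family near the floor of detection. With Pparg expression 0 of the 8 members were at least 2-fold higher or lower than in their control by the log2(FPKM + 1) ratio, where 4.22% of all genes compared were higher and 2.30% lower. The Pparg and Myod1 comparisons share this control. Against the other control it was 0 as well (5.52% of all genes higher, 2.41% lower). With Setdb1 knockdown the count was also 0, against 9.34% of all genes higher and 10.3% lower, and 0 against the empty expression vector control (8.72% and 11%). Between the 2 controls it was 0, with 1.23% of all genes higher and 1.44% lower where the knockdown vector was used. All members were under an FPKM of 1 in these libraries, so with a pseudocount of 1 no ratio could reach 2-fold. These counts of 0 were thus fixed in advance and are no result about the family. With a pseudocount of 0.1, 3 of the 7 members compared passed the limit upward with Pparg expression (8.81% of all genes higher, 4.66% lower). With Setdb1 knockdown at that pseudocount 1 of 7 did so (15% higher, 16.3% lower).

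These low values rest on few reads, and the ratios below are descriptions with wide counting intervals. Tnnt3 had 27 reads with Pparg expression and 4 in the empty expression vector control, a ratio of 5.75 with an exact counting interval from 2.004 to 22.6, and 7 reads in the other control, a ratio of 3.36 (1.43 to 9.15). Both controls thus lay below Pparg expression. Tnnt2 had 29 reads against 9 in the same pair, a ratio of 2.75 (1.27 to 6.59), and 11 in the other control, a ratio of 2.30 (1.12 to 5.10). Tnni1 had 14 reads with Pparg expression against 1, a ratio of 11.9 (1.82 to 505), but against the 5 reads of the other control the ratio was 2.44 (0.831 to 8.67). Tnnt1 went the other way, with 7 reads against 11, a ratio of 0.542 (0.178 to 1.53) whose interval includes 1. Tnnc1 had 6 reads with Pparg expression against 1, a ratio of 5.11 (0.620 to 235). Tnnc1 with Setdb1 knockdown had 10 reads against 1, a ratio of 9.04 (1.29 to 392.1). Tnni1 had 15 reads with knockdown against 5, a ratio of 2.71 (0.937 to 9.53), and against the 1 read of the empty expression vector control the ratio was 13.2 (2.04 to 557). The 3 troponin T genes had ratios with knockdown of 1.03 for Tnnt3, 1.396 for Tnnt2 and 0.739 for Tnnt1, and each interval includes 1. These intervals hold counting error without the spread between cultures. As a share of its own level with Myod1 expression, Tnnt3 with Pparg expression stood at 0.0421% and Tnnc1 with Setdb1 knockdown at 0.120%.

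**Figure D3:**
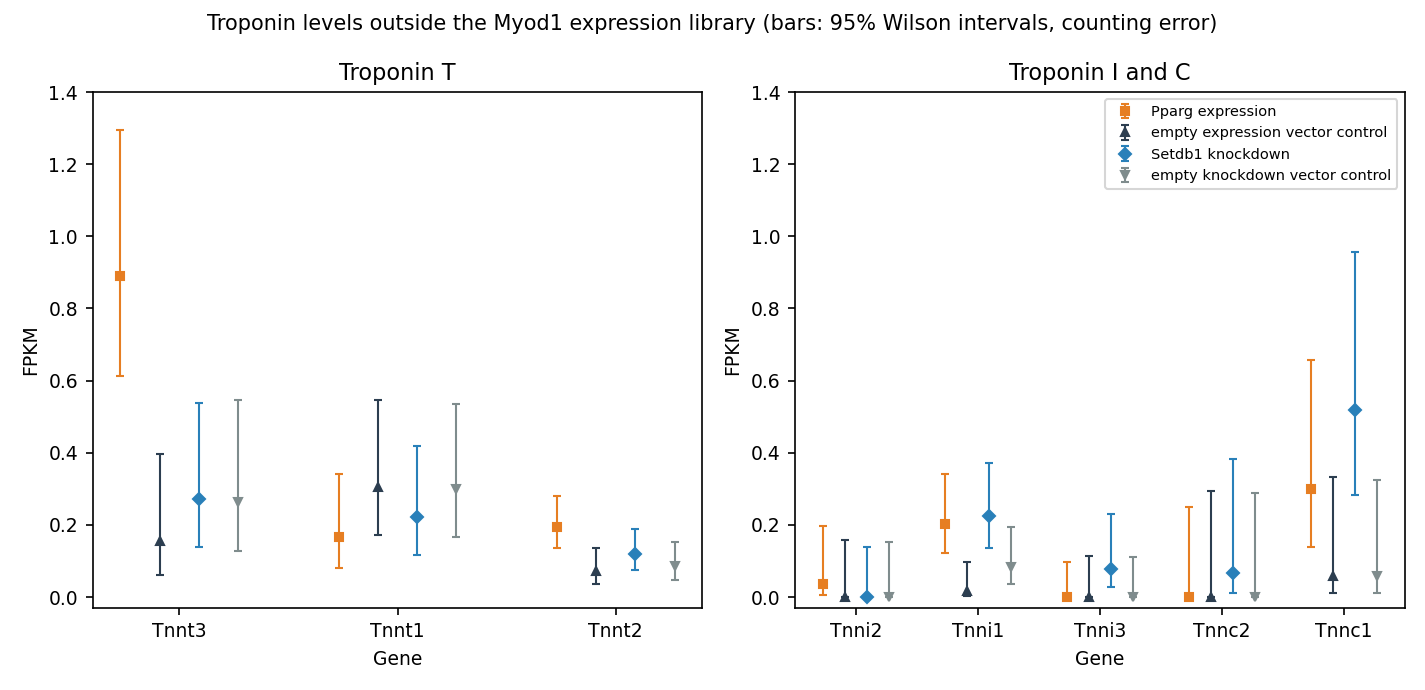
FPKM of the troponin genes in the 4 libraries other than Myod1 expression, with 95% Wilson intervals for counting error. Tnnt3 with Pparg expression stands highest at 0.890, and Tnni2, Tnni3 and Tnnc2 lie at or next to 0.

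The other parts of the thin filament were looked at beside the troponins. Of 13 partner genes 11 were compared, and 9 were at least 2-fold higher and 2 lower with Myod1 expression, with a median log2 ratio of 5.80 against 0.02 over all genes, of which 14% were higher and 7.55% lower. Of the 11, 6 reached an FPKM of 1 in the Myod1 expression library alone and so had to be higher there, and of the other 5, 3 were higher. Tropomyosin is the strand on which troponin T sits. Tpm2 stood at 1433 against 0.105 FPKM, Tpm1 at 475 against 60.5 (7.84-fold, 7.64 to 8.05), while Tpm3 was lower, at 51.5 against 109.0, and so was Tpm4, at 21.8 against 58.2. Neb, the giant ruler protein nebulin, stood at 17.9 against 0.0461. Lmod2 and Lmod3, leiomodins that nucleate actin, stood at 54.9 and 65.3 against 0 reads. With Pparg expression 1 of the 11 was at least 2-fold higher, Tpm2 at 1.26 against 0.105, and with Setdb1 knockdown 1 was lower, Tpm4 at 16.8 against 57.8. Of all genes 4.22% were higher with Pparg expression and 10.3% lower with Setdb1 knockdown, so such single calls do not set the list apart.

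Genes that mark fibre types did not all follow the troponin form of the same name. Many of the genes compared here also reached an FPKM of 1 with Myod1 expression alone, 5 of the fast, 6 of the slow and 3 of the cardiac genes and both developmental myosins, so their counts describe these libraries and support nothing. The share of all genes was again 14% higher and 7.55% lower. Of 12 fast fibre genes 8 were compared and all 8 were at least 2-fold higher with Myod1 expression (median 5.996). The fast regulatory light chain Mylpf stood at 9518 against 7.61 and Actn3, the fast fibre actinin, at 158 against 0.254, while the adult fast myosin heavy chains Myh1 and Myh2 had 0 reads and Myh4 an FPKM of 0.0106. Of 9 slow fibre genes 8 were compared and 7 were higher (median 2.75), led by the calsequestrin Casq2 at 255 against 0.0895, with the slow myosin heavy chain Myh7 at 2.61 against 0 reads. Of 12 cardiac genes 4 were compared, and 3 were higher and 1 lower. Myl4, a light chain of atrium and embryonic muscle, stood at 1119 against 0.172, and the natriuretic peptide gene Nppb was lower, at 11.6 against 26.3, but not past 2-fold against the 18.1 of the other control. Nkx2-5, Tbx5, Hand2, Ryr2, Pln and Myl7 had 0 reads in the Myod1 expression library, in which cardiac Tnnt2 stood at 478. Developmental myosin Myh3 stood at 2044 against 0.162, and Myh8 at 7.98 against 0 reads. In the other treatments 1 fast gene passed the limit with Pparg expression, Mylpf at 17.6 against 7.61, and 1 slow gene with Setdb1 knockdown, Casq2 at 2.03 against 0.0874. These are 1 of 8 genes each, beside 4.22% of all genes higher with Pparg expression and 9.34% with Setdb1 knockdown. Of the 4 cardiac genes compared 1 was lower with Pparg expression, Nppb at 10.4 against 26.3, where 2.30% of all genes were lower. It was not past 2-fold against the 18.1 of the other control.

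**Figure D4:**
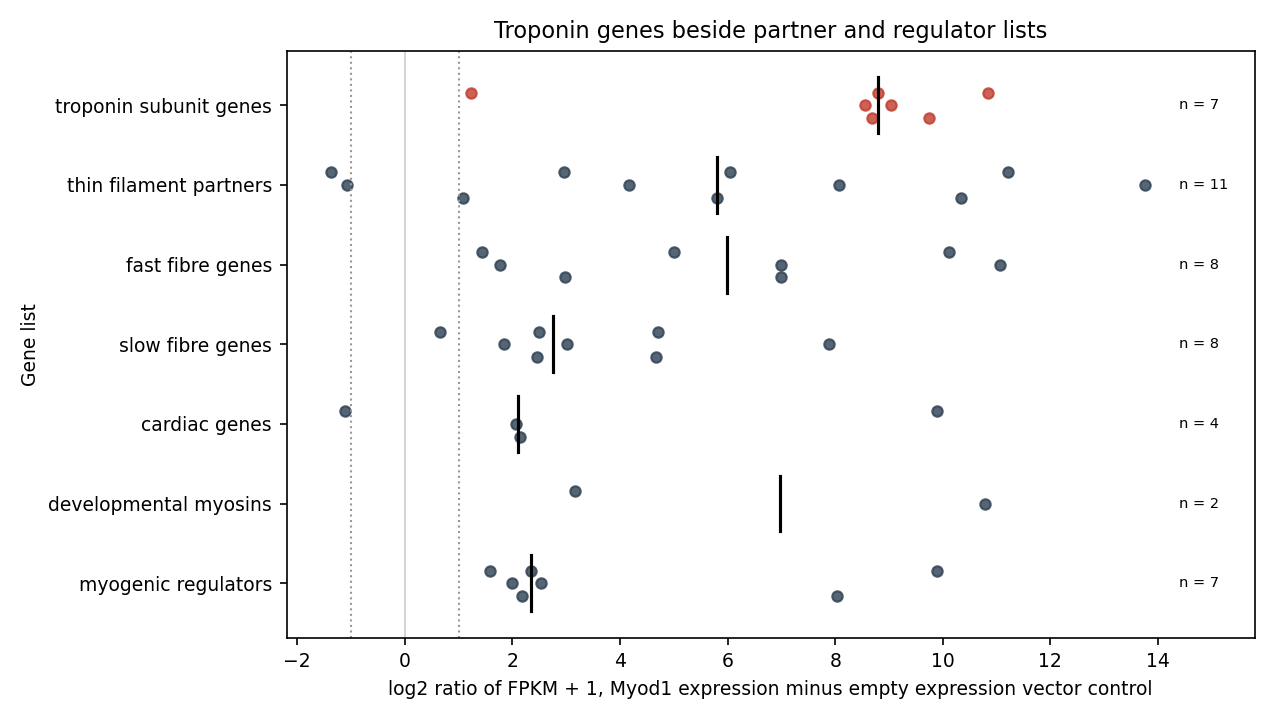
Log2 ratio of FPKM + 1 for Myod1 expression over its control, for the lists described in the text, with 1 point per gene compared, a bar at each list's median and dotted lines at 2-fold. Of the 7 troponin genes shown, 6 lie between 8.56 and 10.84 and Tnnc2 at 1.23.

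Among myogenic regulators all 7 that were compared were at least 2-fold higher with Myod1 expression, with a median log2 ratio of 2.34 against 0.02 over all genes, of which 14% were higher and 7.55% lower, but 1 of them is Myod1, the forced gene itself. Myod1 and Myog reached an FPKM of 1 in that library alone, and the other 5 compared (Mef2a, Mef2c, Mef2d, Tead4 and Srf) reached it in other libraries too. Myog, the factor that drives terminal muscle differentiation, stood at 948 against 0 reads, and the other 2 of the 9, Myf5 and Myf6, had 0 reads and an FPKM of 0.151.

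Genes with the most similar pattern over the 5 libraries were found by Euclidean distance of log2(FPKM + 1), which here is set mostly by the level in the Myod1 expression library. Closest to Tnnt3 were Myl1 (distance 0.54), Tpm2 and Myh3. For Tnni1 they were Ckm (0.38), Myog and Myl4, and for Tnni2 Mybph (0.08), Mymx and Mymk. Tnnt1 and Tnnc1 each had Tnnt2 as the nearest gene, at 0.41 and 0.48, and Tnnt2 had Mymx at 0.31. Tnnc2 stood apart from its family and lay next to Gal3st2 (0.05), Ermap and Gm35019, genes with an FPKM between 1.29 and 1.35 with Myod1 expression.

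The 6 troponin T and I genes lie in 3 pairs, and the neighbourhood of each troponin gene was read from the deposited positions. Tnni1 and Tnnt2 lie 25.4 kb apart on chromosome 1, Tnni2 and Tnnt3 54.4 kb apart on chromosome 7, and Tnnt1 and Tnni3 1.92 kb apart on chromosome 7. In the first 2 pairs both genes were abundant with Myod1 expression, and in the third Tnnt1 alone was. A total of 35 other genes with a symbol lie within 50 kb of a member, and 20 of them were compared. With Myod1 expression 5 of the 20 were at least 2-fold higher and 1 was lower, where 14% and 7.55% of all genes were, and 3 of the 5 (Lad1, Syt8 and Prr33) reached an FPKM of 1 in that library alone. Over the 20 neighbours compared the median log2 ratio was 0.48, against 0.02 over all genes. Of the 17 neighbours that reached an FPKM of 1 in another library 2 were higher, beside 1238 of 12133 such genes in the whole table.

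Genes between paired troponins did not move alike. Lad1, between Tnni1 and Tnnt2, stood at 3.33 against 0 reads, while Lsp1, between Tnni2 and Tnnt3, was lower, at 0.787 against 2.60. Syt8, 1.41 kb from Tnni2, stood at 1.68 against 0.0323, and Prr33 at 13.2 against 0.0521. Prr33 overlaps the Tnnt3 gene on the opposite strand with 0 shared exon bases, and without stated strand its reads cannot be told from those of Tnnt3 introns. Snx21, 5.86 kb from Tnnc2, stood at 17.6 against 3.25 while Tnnc2 had 17 reads. Phlda3, 10.3 kb from Tnni1, stood at 336 against 84.5, and it stood at 293 with Pparg expression, where Tnni1 was at 0.203. The other control held Phlda3 at 146, against which the log2 ratio was 1.20 with Myod1 expression and 0.9986 with Pparg expression, the latter just under the limit.

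**Figure D5:**
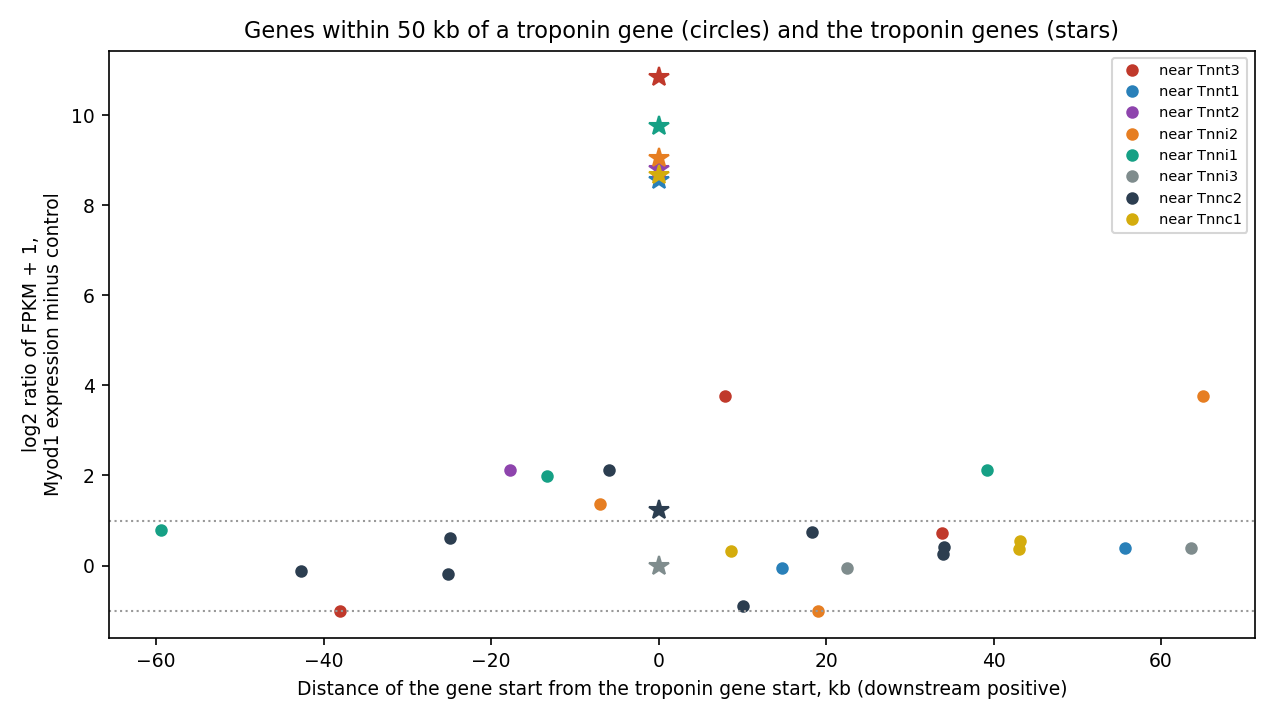
Log2 ratio of FPKM + 1 with Myod1 expression against its control, for genes within 50 kb of a troponin gene (circles) and the troponin genes (stars), by distance between gene starts in kb. Prr33, the highest neighbour at 3.76, and other genes near 2 members are drawn once for each, and 6 stars lie above all circles.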

How the data were processed

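RNA sequencing of 5 B16F10 libraries was deposited as 1 table of 54699 genes, and each column name matches the labels of 1 library. The submitters' processing notes name CASAVA, HISAT2, featureCounts 1.5.0-p3 and GRCm38. The handling of strand and shared reads is not given in the sources used here. The values were deposited as FPKM by the authors, per the name of the table. Values times gene length were whole multiples of 1 step in each library (100% within 0.01), which gave back the reads. All 8 members have the same position in GENCODE M21 as in the table, and RefSeq supplied promoter windows for 6. Depth was 16214802 to 18300670 reads per library.

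Log2 ratios used a pseudocount of 1 and a 2-fold limit, on genes whose FPKM reached 1 in any of the libraries. No test between groups was made. Levels have 95% Wilson intervals, ratios exact conditional binomial intervals, and shares intervals by the delta method on the logit scale. Against 0 reads a fold was set on 3 reads per library, without a counting interval. Genes named are the members, the targeted genes, the context and marker lists, genes within 50 kb, and the 3 nearest genes by pattern. The context lists described are not all that were fixed: 2 more, in which 2 of 11 genes compared were at least 2-fold higher and 0 lower with Myod1 expression (14% and 7.55% of all genes), are not reported here by gene. Members and lists were chosen with earlier results of these data known. The steps were tested on simulated data. Python 3.11.15 with pandas 2.3.3 and scipy 1.17.1 was used.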

Additional observations from a re-analysis of the deposited data

How the results depend on the processing

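The Myod1 count of 7 members at least 2-fold higher was 6 with a 4-fold limit or with a mean FPKM of at least 1, which Tnnc2 misses, and 7 with the other alternatives (pseudocount, no filter, column sum, 75th percentile, centring, other control). The counts of 0 moved with a pseudocount of 0.1, to 3 of 7 with Pparg expression (8.81% of all genes higher at that setting; Tnnt3 at 1.96, Tnni1 at 1.37 and Tnnc1 at 1.34 on the log2 scale) and to 1 of 7 with Setdb1 knockdown (15% of all genes higher; Tnnc1 at 1.98), by construction, since values under 1 weigh more. They stayed at 0 with the other alternatives. These kept the pseudocount of 1, which leaves values near or under 1 little or no room to differ 2-fold, so they were no check. The count between the controls was 0 with each alternative, a pseudocount of 0.1 included. Of 152 log2 ratios of single members under an alternative, the 4 named at a pseudocount of 0.1 crossed the limit. None of those past it changed sign. Dividing by the column sum shifted the median of all genes with Myod1 expression by -0.28 and the 75th percentile by -0.12.

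The share of the fast form depended on length. In reads not divided by length it was 41.1% of troponin T, 20.0% of troponin I and 0.239% of troponin C. Per base of the principal transcript, an alternative chosen after seeing the data, it was 44.5%, 27.3% and 0.246%. Division by protein length was not run, as no protein table was used here. No paired analysis was possible because each group has 1 library. Members with fewer than 30 reads (all of them outside the Myod1 expression library, and Tnnc2 and Tnni3 within it) allow no fine comparison.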
